A study of Mus musculus with 18 samples.

Results

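The striatal microglia of 5 heterozygous Q175 mice were compared with those of 5 wild type (WT) mice, which are 10 of the 18 samples of the series. Q175 is a knock-in model of Huntington's disease (HD) in which the mouse *Htt* allele carries an expanded CAG repeat. *Tyrobp*, which encodes an adaptor of microglial surface receptors, was intact in both groups. The other 8 samples were 3 *Tyrobp*-KO and 5 Q175;*Tyrobp*-KO, so that the same *Htt* allele was also measured without *Tyrobp*. All mice were adult and on a C57BL/6 background (C57Bl6/J in the methods), and no finer age was given for the microglia. The 10 samples were chosen by their genotype labels, and all 18266 genes that reached 1 CPM (counts scaled to a common library total) in any of them were tested, of 55536 in the table. Cells were freed mechanically, cleared of myelin on Percoll and bound to magnetic beads against CD11b, an integrin that also marks macrophages, monocytes and neutrophils. Of the Q175 mice 4 were female and 1 was male, whereas of the WT mice 1 was female and 4 were male, so genotype and sex were largely confounded.

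Microglia are the resident macrophages of the brain. They survey the tissue through purinergic and pattern receptors, take up debris and synaptic material, and release complement, cytokines and chemokines. In disease models a part of them lowers homeostatic genes such as *P2ry12* and raises a disease-associated program that includes *Apoe*, *Clec7a* and *Spp1*, while interferon and NF-kappaB target genes mark other forms of activation. In HD the medium spiny neurons of the striatum are the most vulnerable cells, and mutant *Htt* is also expressed in microglia.

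Throughout, values are listed for WT replicates 1, 2, 6, 7 and 8 and then for Q175 replicates 3, 4, 9, 14 and 17, in that order, and fold changes are Q175 minus WT on the log2 scale. Total counts were between 11260410 and 24011729, and 22386 to 25914 genes had a count. The 2 genes *Gm26917* and *Gm42418* took 12.5% to 22.8% of the counts in WT and 15.4% to 29.5% in Q175. This share was largest in Q175 replicate 4, which also had the lowest total. *Xist* matched the labelled sex in all 10 samples. *Htt* did not separate the groups (log2 fold change 0.11, SE 0.19, unadjusted p = 0.579). *Tyrobp* was at 339.6 ± 121 CPM in WT and 279.7 ± 62.1 CPM in Q175 (SD, n = 5 each). All 20 microglial markers were detected, with a mean log2 CPM of 9.41 to 9.92 in WT and 8.94 to 10.1 in Q175, and 0 of 20 differed at an unadjusted p under 0.05. The astrocyte markers were between 4.07 and 4.95 in WT and between 5.26 and 6.89 in Q175 on the same scale, without overlap, and the oligodendrocyte precursor markers did not overlap either. A score of astrocyte, neuronal and oligodendrocyte markers was between -0.722 and -0.271 in WT and between 0.0741 and 1.41 in Q175, highest in Q175 replicate 14. In bulk samples such as these, fewer cells of a type and less RNA per cell cannot be told apart.

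No gene differed between Q175 and WT in edgeR's quasi-likelihood test at a Benjamini-Hochberg FDR of 0.1 (0 of 18266 genes, 0.0% of those tested, smallest adjusted p = 0.345), while DESeq2's Wald test on the same genes called 234, 231 of them higher in Q175. At an unadjusted p under 0.05 in the edgeR test 1000 genes (5.47%) were higher and 140 (0.766%) lower in Q175, and the words higher and lower below refer to this unadjusted level, which no gene kept after adjustment. In 172 genes (0.942%) all 5 Q175 samples lay above all 5 WT samples, and in 37 genes (0.203%) all lay below. Leaving out Q175 replicate 14 reduced the higher genes to 617. The number of lower genes was 73, 91, 77 without WT replicate 1, WT replicate 2 and Q175 replicate 14, and 379, 229, 360 without WT replicate 7, WT replicate 8 and Q175 replicate 17. With sex as a term 208 genes (1.14%) were higher and 38 (0.208%) lower, and all 1000 and all 140 genes kept their sign. With that score added to the model 268 genes (1.47%) were higher and 137 (0.75%) lower, and 605 of the 1000 and 134 of the 140 genes kept their sign.

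To describe which differences ran along with RNA of other brain cells, each gene was correlated with the non-microglial score over the 8 *Tyrobp*-null samples. These take no part in the comparison, and gene and score were first centred within genotype. Of the 1000 higher genes 882 (88.2%) had a correlation of 0.5 or above, against 4654 of all genes (25.5%). Their median log2 fold change was 1.10, and 0.07 when the score was a term. These genes were picked by that correlation, and the score did not overlap between WT and Q175, so the fall is a description only. The other 118 higher genes were 0.867% of the genes below that limit. Of the 140 lower genes 128 (91.4%) lay below the limit, which is 0.940% of those genes. The higher genes that did not follow the score were scarce, with a median mean level of 1.38 CPM, and 47 of 118 were under 1 CPM on average. The lower genes that did not follow it had a median mean level of 10.9 CPM and a median log2 fold change of -0.53.

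**Figure D1:**
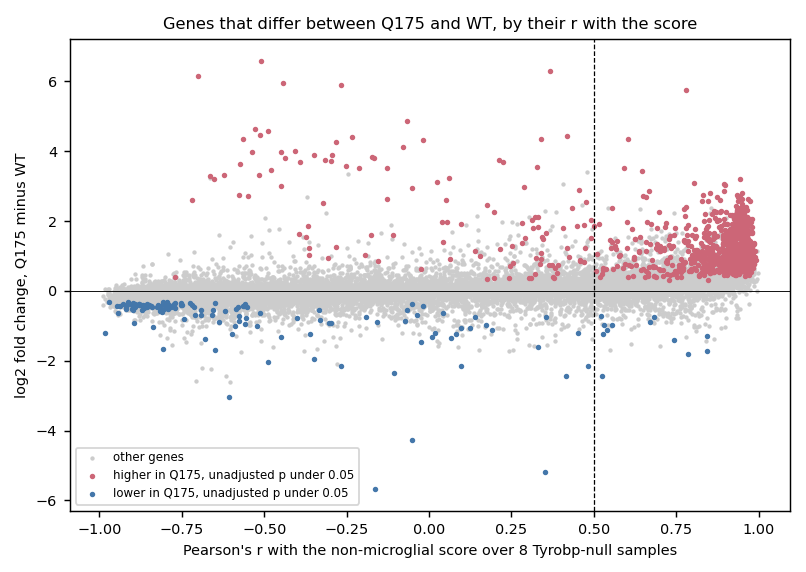
Each point is 1 of the 18266 genes tested. The x axis is Pearson's r of the gene with the non-microglial score over the 8 Tyrobp-null samples (3 Tyrobp-KO and 5 Q175;Tyrobp-KO), both centred within genotype. The y axis is the log2 fold change between 5 Q175 and 5 WT samples, and the dashed line marks r = 0.5. Of the 1000 genes coloured as higher in Q175, 882 lie right of the line, and of the 140 coloured as lower, 128 lie left of it.

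To ask which functional classes differed, 44 lists covering 1426 distinct genes were described by their counts and their median. The medians of 41 lists lay within 0.3 of 0, where the median of all genes was -0.02. In 12 lists no member was at an unadjusted p under 0.05. The largest medians belonged to the RNAs encoded by the mitochondrial genome, followed by synaptic receptors (0.39) and the nuclear subunits of the respiratory chain (0.27). For the immune functions of microglia, 18 lists with 436 distinct genes held 10 higher genes (2.29%) and 7 lower genes (1.61%), against 5.47% and 0.766% of all genes, and 17 of the 18 medians were below 0. Of the 436 genes 34 had an r of 0.5 or above with the score, among them 8 of the 10 higher genes. The median of the 436 genes was -0.15. All genes tested with r under 0.5 had a median of -0.09, with 0.867% higher and 0.940% lower. The immune medians ranged from -0.22 to 0.00. With the score as a term some lay further below 0, in a fit where 0.75% of all genes were lower. The medians were -0.84 for chemokines (4 of 22 genes lower), -0.71 for the interferon response (6 of 44) and -0.65 for the disease-associated program (5 of 39). They were -0.57 for class II presentation (0 of 12) and -0.50 for class I presentation (2 of 21). The score did not overlap between WT and Q175, so this fit cannot tell score and genotype apart with confidence.

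**Figure D2:**
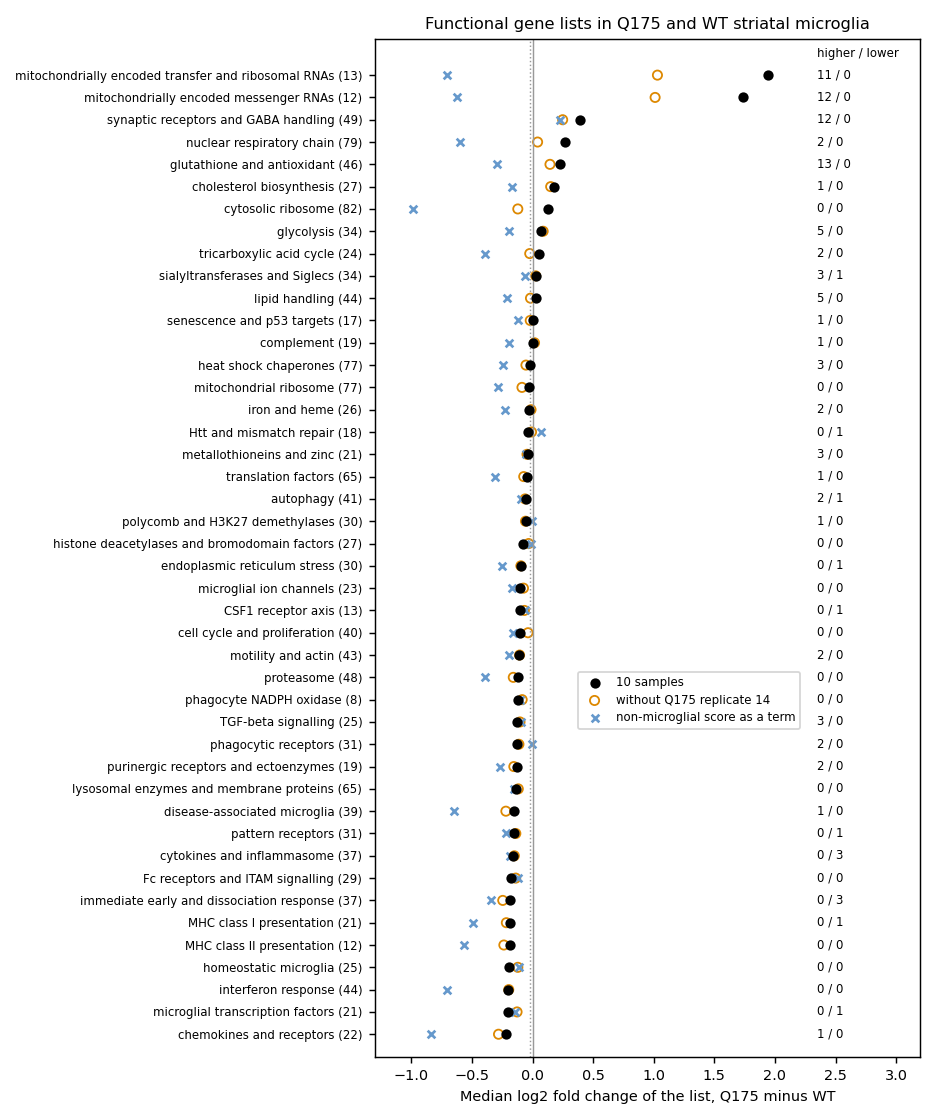
Each row is a functional gene list with its number of genes tested. The x axis is the list's median log2 fold change between 5 Q175 and 5 WT samples (black), without Q175 replicate 14 (open circles) and with the score added to the model (crosses), the dotted line is the median of all genes, and the figures at the right are the members higher and lower at an unadjusted p under 0.05. The 2 lists of mitochondrially encoded RNAs stand at 1.73 and 1.94, and the immune lists lie at or just below 0.

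Genes of homeostatic microglia showed no member past the unadjusted level. Of 25 genes 0 were higher and 0 lower, 3 had a fold change above 0, and the median was -0.20. *P2ry12*, the ADP receptor that steers microglial processes toward injury, was at 2601, 2129.6, 2466, 1133 and 1449 CPM in WT and 1290.5, 1604, 1508, 1584 and 2323 CPM in Q175. The WT samples spanned the Q175 samples (log2 fold change -0.23, SE 0.27, unadjusted p = 0.393). *P2ry13*, a related ADP receptor, had a fold change of -0.26 and *Tmem119*, a microglial surface protein, of 0.14. *P2ry12* and *P2ry13* lie inside *Med12l*, and the libraries did not keep strand, so reads of overlapping genes could not be told apart. Among 21 microglial transcription factors 1 was lower, *Klf2*, a factor that restrains inflammatory genes (log2 fold change -0.58, SE 0.27, unadjusted p = 0.048). Its values were 4.35, 7.59, 7.84, 6.03 and 3.40 CPM in WT and 4.52, 4.17, 3.57, 3.28 and 4.001 CPM in Q175, and the groups overlapped.

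Of 39 genes of the disease-associated program 1 was higher and 0 were lower, and the median was -0.15. *Apoe*, the main lipid carrier of the brain, was at 217, 360.1, 177, 595 and 465 CPM in WT and 446, 169.9, 198, 949.8 and 818 CPM in Q175. Q175 replicates 14 and 17, which had the highest non-microglial scores, lay above the WT range, and the other Q175 samples lay within it or below (log2 fold change 0.51, SE 0.48, unadjusted p = 0.311). *Spp1*, encoding osteopontin, and *Clec7a*, a beta-glucan receptor, had fold changes of -0.01 (SE 0.72) and -0.36 (SE 0.38). The 1 higher member was *Fabp5*, a fatty acid binding protein (log2 fold change 0.77, SE 0.29, unadjusted p = 0.0196), which followed the non-microglial score with r = 0.93 and had a fold change of -0.50 with the score as a term. In that fit the list's median was -0.65 with 5 of 39 genes lower, against 0.75% of all genes. There *Spp1* had a fold change of -3.70 (unadjusted p = 0.0201 by edgeR) and *Clec7a* of -1.90 (unadjusted p = 0.0102 by edgeR). Because the score did not overlap between WT and Q175, these values cannot be ascribed to genotype with confidence.

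Uptake and digestion showed few differences. Over all genes 5.47% were higher and 0.766% lower. Among 31 phagocytic receptors and bridging proteins 2 were higher, the engulfment adaptor *Gulp1* (log2 fold change 1.47, SE 0.39, unadjusted p = 0.00219) and the phosphatidylserine bridging protein *Mfge8* (log2 fold change 0.75, SE 0.29, unadjusted p = 0.0216). *Gulp1* was at 1.29, 0.866, 0.959, 1.15 and 0.851 CPM in WT and 1.75, 3.62, 1.69, 5.27 and 2.0003 CPM in Q175, so that every Q175 sample lay above every WT sample. Both followed the score, with r = 0.86 and 0.85. The TAM receptor *Mertk* and its relatives *Axl* and *Tyro3*, which take up apoptotic material, had fold changes of -0.22, -0.03 and 0.28 at unadjusted p of 0.432 or above. Of 65 lysosomal enzymes and membrane proteins 0 were higher and 0 lower, with 8 above 0 and a median of -0.14. Of 41 autophagy genes 2 were higher and 1 lower, the lower one being *Tbk1*, a kinase of selective autophagy and interferon induction (log2 fold change -0.32, SE 0.15, unadjusted p = 0.0485, lower in 24 of 25 pairs of samples).

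The complement list had a median of 0.00, and 1 of 19 genes was higher. *C1qa*, *C1qb* and *C1qc*, the chains of the complement starter C1q, had fold changes of 0.02, 0.16 and 0.10. *C1qa* was at 932, 1409, 1088, 1215 and 854 CPM in WT and 1383, 686, 798, 1136 and 1563 CPM in Q175. Both the highest and the lowest of the 10 values belonged to Q175 samples, and the group means differed by less than 1 SD of either group. The higher member was *Cd59a*, an inhibitor of the membrane attack complex, at 0.486 ± 0.227 CPM in WT and 1.25 ± 0.876 CPM in Q175 (SD, unadjusted p = 0.0413 by edgeR). Among 44 interferon response genes 0 were higher and 0 lower and the median was -0.20. It was -0.47 with sex as a term (2 genes lower) and -0.71 with the score (6 lower). Over all genes 0.208% were lower in the fit with sex and 0.75% in that with the score. The interferon-induced *Ifit1*, *Ifit2* and *Ifit3* had fold changes of -0.01, 0.16 and 0.44, the last with an SE of 0.42.

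Of 21 class I antigen presentation genes 19 were below 0 and 1 was lower, the non-classical *H2-M3*, which presents formylated peptides (log2 fold change -0.46, SE 0.20, unadjusted p = 0.0405). The classical class I chains *H2-D1* and *H2-K1* had fold changes of -0.09 and -0.04, and reads of such similar genes can be split between them. Of 12 class II genes 0 were higher and 0 lower. The medians of class I and class II were both -0.19, and were -0.32 and -0.33 with sex and -0.50 and -0.57 with the score as a term. Among 22 chemokines and receptors 1 was higher, *Cxcl14* (log2 fold change 1.74, SE 0.46, unadjusted p = 0.00238), whose r with the score was 0.94 and whose fold change was 0.09 with the score as a term.

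The lower genes of the immune lists, 7 of 436 (1.61%), came from several lists. This share was 0.766% over all genes and 0.940% over genes with r under 0.5 to the score. *Tlr2*, a receptor for bacterial lipoproteins and the 1 of 31 pattern receptors past this level, was at 141, 129, 118, 104 and 88.8 CPM in WT and 94.1, 71.8, 63.2, 77.1 and 116 CPM in Q175. Q175 replicates 3 and 17 lay within the WT range and replicate 9 was the lowest (log2 fold change -0.46, SE 0.20, unadjusted p = 0.0385). Of 37 cytokine and inflammasome genes 3 were lower. *Rel*, the NF-kappaB subunit c-Rel, was at 144, 155, 167, 100.2 and 111 CPM in WT and 112, 95.3, 99.8, 76.8 and 124 CPM in Q175 (log2 fold change -0.42, SE 0.19, unadjusted p = 0.0489). *Tnfaip3*, encoding A20, an inhibitor of NF-kappaB signalling, was at 70.98, 74.4, 66.1, 66.9 and 79.5 CPM in WT and 70.6, 41.7, 54.9, 46.1 and 63.2 CPM in Q175 (log2 fold change -0.37, SE 0.17, unadjusted p = 0.0482). For these genes the groups overlapped, by 1 or more Q175 samples above the lowest WT sample. The third lower gene, the prostaglandin synthase *Ptgs2*, was scarce, with 5, 12, 63, 14 and 7 reads in WT and 0, 6, 11, 5 and 11 reads in Q175. *Il1b*, the inflammasome cytokine, had a fold change of -0.66 (SE 0.37), and *Il1a* of -0.08 (SE 0.27).

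Among 34 sialyltransferase and Siglec genes 3 were higher and 1 was lower, against 5.47% and 0.766% of all genes. In that list 18 genes were above 0 and the median was 0.03. The lower gene was *Cd33*, a sialic acid binding inhibitory receptor of microglia. *Cd33* was at 977, 897, 936, 693 and 836 CPM in WT and 709.6, 538, 744, 437 and 675 CPM in Q175. Its 2 lowest values were those of Q175 replicates 14 and 4, and those of replicates 3 and 9 lay above the lowest WT value, that of replicate 7 (log2 fold change -0.48, SE 0.20, unadjusted p = 0.0298). Among 37 immediate early and dissociation response genes, which respond within minutes to handling of cells, 3 were lower and 0 higher, 24 were below 0 and the median was -0.19. *Klf6*, an injury-responsive zinc finger factor, was at 158, 180.0, 185, 93.1 and 105 CPM in WT and 114, 86.4, 89.99, 79.6 and 123 CPM in Q175, with WT replicates 7 and 8 inside the Q175 range (log2 fold change -0.55, SE 0.23, unadjusted p = 0.0303). *Btg1*, an antiproliferative gene, was at 137, 169, 158, 145 and 116 CPM in WT and 124, 101, 113, 99.7 and 129.9 CPM in Q175 (log2 fold change -0.35, SE 0.16, unadjusted p = 0.0462). All 6 of *Tlr2*, *Rel*, *Tnfaip3*, *Cd33*, *Klf6* and *Btg1* had a negative r with the non-microglial score, from -0.79 for *Cd33* to -0.92 for *Rel*. With the score as a term the fold changes were -0.54 for *Tlr2*, -0.14 for *Rel*, -0.25 for *Tnfaip3*, -0.07 for *Cd33*, -0.36 for *Klf6* and -0.17 for *Btg1*. When each of the 10 samples was left out in turn, the unadjusted p stayed under 0.05 in 4 of 10 fits for *Tlr2*, 3 for *Rel*, 3 for *Tnfaip3*, 5 for *Cd33*, 4 for *Klf6* and 2 for *Btg1*.

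**Figure D3:**
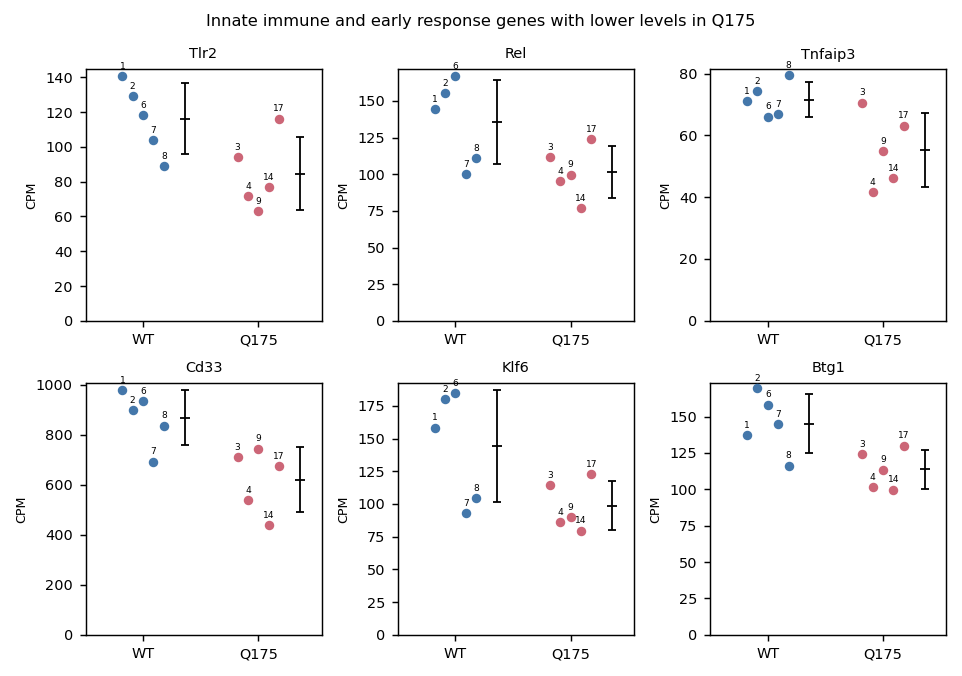
CPM of 6 innate immune and early response genes in 5 WT and 5 Q175 samples. Points are samples with their replicate number, and the bar beside each group is the mean with 1 SD. The group means are lower in Q175 in all 6 panels, for Cd33 868 in WT and 621 in Q175, and the ranges of the groups overlap in each.

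Signalling through trophic factors differed in few genes, to be read beside the 5.47% higher and 0.766% lower of all genes. Of 25 TGF-beta signalling genes 3 were higher, the ligand *Tgfb3*, the integrin subunit *Itgb8*, which releases active TGF-beta, and the latency protein *Ltbp1*. *Tgfb3* was at 4.67, 5.13, 4.57, 3.59 and 3.78 CPM in WT and 7.80, 11.04, 5.41, 9.20 and 5.52 CPM in Q175, with no overlap (log2 fold change 0.83, SE 0.25, unadjusted p = 0.00509), and its fold change was 0.67 with the score as a term (unadjusted p = 0.157) and 0.72 with sex as a term (unadjusted p = 0.0636). *Tgfb3*, *Itgb8* and *Ltbp1* all followed the score, with r of 0.91, 0.98 and 0.89. With it as a term the fold changes of *Itgb8* and *Ltbp1* were -0.56 and 0.02. *Tgfb1*, the ligand on which adult microglia depend, had a fold change of -0.21 (SE 0.53). In the axis of the CSF1 receptor, which sustains microglia, 1 of 13 genes was lower. This gene was the docking protein *Dok2*, an inhibitor of tyrosine kinase signalling, at 1.02, 0.999, 1.92, 0.790 and 1.22 CPM in WT and 0.729, 0.557, 0.667, 0.772 and 0.522 CPM in Q175. Each Q175 value lay below each WT value, at a level near 1 CPM (log2 fold change -0.87, SE 0.38, unadjusted p = 0.0392). *Dok2* overlaps *Xpo7*, with means of 84.6 CPM in WT and 72.0 CPM in Q175. *Tgfb3* overlaps *Ttll5*, with means of 48.0 CPM in WT and 52.9 CPM in Q175. The libraries did not keep strand, so reads in these overlaps could not be told apart. Among 19 purinergic receptors and ectoenzymes 2 were higher, the adenosine receptor *Adora1* (r = 0.95 with the score) and the ectoenzyme *Nt5e*, described below. The 23 microglial ion channels, the 8 subunits of the phagocyte NADPH oxidase and the 29 Fc receptor and ITAM signalling genes each held 0 higher and 0 lower genes, with medians of -0.10, -0.12 and -0.18. Of 43 motility and actin genes 2 were higher, among them the membrane linker *Ezr* (log2 fold change 1.31, SE 0.37, unadjusted p = 0.00344, r = 0.86 with the score).

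RNAs of the mitochondrial genome were the class with the largest difference. They encode core subunits of the respiratory chain and the transfer and ribosomal RNAs that translate them. All 12 messenger RNAs tested were higher, with fold changes from 1.21 to 2.36 and a median of 1.73, and 11 of 13 transfer and ribosomal RNAs were higher, with a median of 1.94. Mitochondrial messenger RNA made up 1.03%, 0.696%, 0.729%, 0.554% and 0.663% of the counts in WT and 1.11%, 0.976%, 1.04%, 5.77% and 1.92% in Q175. Q175 replicates 14 and 17 stood above all other samples, and the other 3 Q175 samples were close to the highest WT sample. *mt-Nd2*, a complex I subunit, was at 117, 84.4, 71.7, 88.8 and 71.2 CPM in WT and 185, 101, 206, 1237 and 499 CPM in Q175 (log2 fold change 2.36, SE 0.56, unadjusted p = 0.00104). *mt-Co1*, the catalytic subunit of cytochrome oxidase, was at 7469, 4665, 5549, 3663 and 3841 CPM in WT and 7711, 7322, 6299, 47067 and 12261 CPM in Q175 (log2 fold change 1.68, SE 0.54, unadjusted p = 0.00824). *mt-Nd1*, another complex I subunit, was at 748, 468, 557, 384 and 399 CPM in WT and 820.3, 626, 785, 4275 and 1532 CPM in Q175 (log2 fold change 1.65, SE 0.49, unadjusted p = 0.00472).

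The same 12 messenger RNAs all followed the non-microglial score, with a median r of 0.95. Their median fold change was 1.01 without Q175 replicate 14, 1.43 with sex as a term and -0.62 with the score as a term. The median of the transfer and ribosomal RNAs was 1.03 without that replicate and -0.71 with the score. Of 79 nuclear genes of the respiratory chain 73 were above 0 and 2 higher, *Cox6a1* (1.11) and *Cox8a* (1.15), both cytochrome oxidase subunits. The nuclear list had a median of 0.27, which was 0.04 without replicate 14 and -0.60 with the score as a term. The cytosolic ribosome (82 genes, 0 higher and 0 lower) had a mean log2 CPM of 6.78, 6.63, 6.82, 5.78 and 5.23 in WT and 6.25, 6.30, 5.25, 7.24 and 6.78 in Q175, so that WT replicates 7 and 8 and Q175 replicate 9 stood below the rest. Its median of 0.13 became -0.12 without Q175 replicate 14 and -0.99 with the score as a term. The 77 mitochondrial ribosomal protein genes had a median of -0.03, with 0 higher and 0 lower. The part of the non-microglial RNA and of replicate 14 in these differences was not tested beyond these values.

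Metallothioneins, small cysteine-rich proteins that bind zinc and copper, were higher in Q175. *Mt2* was at 5.64, 3.33, 5.19, 4.95 and 3.78 CPM in WT and 10.1, 11.97, 7.53, 50.6 and 15.1 CPM in Q175. No Q175 value reached down to the WT range (log2 fold change 2.05, SE 0.47, unadjusted p = 0.000737). *Mt3*, the brain form, was at 12.7, 11.3, 18.8, 13.4 and 7.29 CPM in WT and 57.9, 25.2, 19.1, 216 and 38.9 CPM in Q175, again without overlap (log2 fold change 2.49, SE 0.59, unadjusted p = 0.00101). *Mt1* was at 30.7, 26.8, 37.8, 20.8 and 15.7 CPM in WT and 46.5, 38.4, 25.1, 172 and 51.3 CPM in Q175, with Q175 replicate 9 inside the WT range (log2 fold change 1.34, SE 0.45, unadjusted p = 0.0114). Without Q175 replicate 14 the fold changes were 0.61 for *Mt1*, 1.28 for *Mt2* and 1.47 for *Mt3*, and with the score as a term -0.72, -0.17 and -0.018. The other 18 genes of the list, mostly zinc transporters, held 0 higher and 0 lower genes.

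The 3 metallothionein genes are neighbours on chromosome 8, and windows around their annotated starts are shown because the genes were higher together. *Mt1* and *Mt2* are classical targets of the metal-sensing factor MTF-1, which binds metal response elements. The sequences, from RefSeq for GRCm38.p6, run from 250 bases before to 50 after the start on the plus strand, at chr8:94178839-94179138 for *Mt1*, chr8:94172368-94172667 for *Mt2* and chr8:94152357-94152656 for *Mt3*. Capitals mark each match to the core of the element, TGCACNC or TGCGCNC on either strand.
Mt1: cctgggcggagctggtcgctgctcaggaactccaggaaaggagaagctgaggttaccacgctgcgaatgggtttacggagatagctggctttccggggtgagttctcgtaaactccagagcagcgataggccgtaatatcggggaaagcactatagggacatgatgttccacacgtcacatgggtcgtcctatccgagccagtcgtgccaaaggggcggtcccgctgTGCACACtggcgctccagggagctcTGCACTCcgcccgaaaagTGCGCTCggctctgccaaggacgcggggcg
Mt2: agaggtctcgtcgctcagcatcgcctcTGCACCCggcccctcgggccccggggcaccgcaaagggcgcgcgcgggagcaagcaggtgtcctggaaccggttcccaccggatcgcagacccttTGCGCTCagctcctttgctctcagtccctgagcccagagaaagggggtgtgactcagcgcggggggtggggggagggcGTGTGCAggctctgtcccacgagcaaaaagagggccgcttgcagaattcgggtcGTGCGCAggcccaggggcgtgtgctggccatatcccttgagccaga
Mt3: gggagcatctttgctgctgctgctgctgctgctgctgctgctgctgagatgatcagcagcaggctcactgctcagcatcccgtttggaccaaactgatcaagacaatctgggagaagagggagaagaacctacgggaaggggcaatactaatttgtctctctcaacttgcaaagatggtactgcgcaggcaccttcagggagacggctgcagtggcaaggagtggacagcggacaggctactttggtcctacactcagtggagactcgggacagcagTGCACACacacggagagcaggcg
The windows held 3 matches in *Mt1*, 4 in *Mt2* and 1 in *Mt3*, and no match overlapped another. Matches after the start began at bases 3 and 21 in *Mt1*, 5 in *Mt2* and 28 in *Mt3*. The windows were set by the annotated start alone, so elements outside them were not counted. Of 32851 windows of the same length 25.7% held at least 1 match, 1.97% at least 3 and 0.517% at least 4. A match of these letters is a description of the sequence and no evidence of binding.

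**Figure D4:**
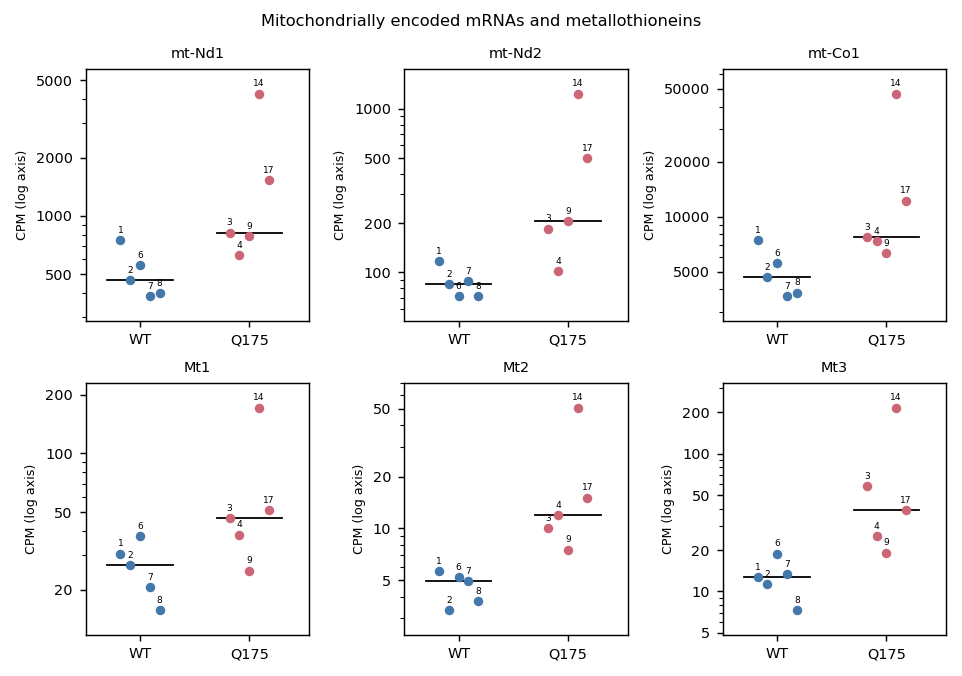
CPM on log axes of 3 mitochondrially encoded messenger RNAs (upper row) and 3 metallothioneins (lower row) in 5 WT and 5 Q175 samples. Points are samples with their replicate number and lines are group medians. Q175 replicate 14 is the highest sample in all 6 panels, and for Mt2 and Mt3 every Q175 sample lies above every WT sample.

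Among metabolic classes, 13 of 46 glutathione and antioxidant genes were higher, where 5.47% of all genes were, and 27 of the 46 had an r of 0.5 or above with the score. The list's median of 0.23 was -0.30 with the score as a term, and 1 gene was higher in the fit with the score and 1 in that with sex. Of 27 cholesterol synthesis genes 22 were above 0 and 1 was higher, *Hmgcs1*, an early enzyme of the pathway (log2 fold change 0.76, SE 0.29, unadjusted p = 0.0205), and the list's median of 0.18 was -0.17 with the score as a term. Of 34 glycolysis genes 5 were higher, and of 24 tricarboxylic acid cycle genes 2. In these lists 21 and 17 genes had an r of 0.5 or above with the score. The medians of 0.07 and 0.05 were -0.19 and -0.40 with the score as a term, and 0 genes of either list were higher in that fit. Among 26 iron and heme genes 2 were higher, the copper-dependent iron oxidase *Heph* (log2 fold change 2.24, SE 0.51, unadjusted p = 0.000775) and the metal reductase *Steap2* (log2 fold change 2.71, SE 0.67, unadjusted p = 0.00136). *Heph* followed the score with r = 0.95 and had a fold change of 0.19 with the score as a term. For *Steap2* these values were 0.65 and 3.47. *Steap2* was at 0.430, 0.733, 0.508, 1.22 and 0.745 CPM in WT and 6.05, 12.5, 0.902, 3.34 and 1.26 CPM in Q175, highest in Q175 replicates 4 and 3, and its fold change was 1.32 without them.

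Protein quality control and chromatin classes stayed near WT levels. Their counts stand beside 5.47% higher and 0.766% lower over all genes. The 48 proteasome genes held 0 higher and 0 lower genes with a median of -0.12, the 77 heat shock chaperones 3 higher, and the 30 endoplasmic reticulum stress genes 1 lower. Of 40 cell cycle genes 0 were higher or lower. Among 18 genes of *Htt* and of mismatch repair, which acts on CAG repeat expansion, 1 was lower, *Pms2* (log2 fold change -0.39, SE 0.18, unadjusted p = 0.0461), and the unadjusted p was under 0.05 in 3 of 10 fits that left out 1 sample. Of 30 polycomb and H3K27 demethylase genes 1 was higher, *Cbx6* (log2 fold change 0.57, SE 0.25, unadjusted p = 0.0443, r = 0.92 with the score), and of 27 histone deacetylase and bromodomain genes 0. Among 17 senescence and p53 targets 1 was higher, *Hrk*, a BH3-only activator of apoptosis known from neurons, at 0.806, 0.733, 1.52, 1.51 and 0.479 CPM in WT and 5.17, 2.60, 3.65, 7.33 and 1.87 CPM in Q175 (log2 fold change 2.03, SE 0.45, unadjusted p = 0.000545). Every Q175 value of *Hrk* exceeded every WT value, and its r with the score was 0.97.

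The genes with the smallest p included several known from astrocytes. *Fxyd1* (phospholemman, a regulator of the sodium pump) was at 2.58, 4.20, 2.82, 3.95 and 2.82 CPM in WT and 13.4, 14.8, 6.67, 17.4 and 5.26 CPM in Q175 (log2 fold change 1.81, SE 0.34, unadjusted p = 0.000127). *Prodh*, the mitochondrial enzyme that starts proline breakdown, *Prex2*, a Rac exchange factor, *Aldh1l1*, the folate enzyme used as an astrocyte marker, *Ntm*, a neural adhesion protein, and *Ntsr2*, a neurotensin receptor of astrocytes, had fold changes of 1.21, 1.52, 1.27, 1.13 and 0.93. In each of these 6 genes all 5 Q175 values were above all 5 WT values. All had r of 0.92 or above with the score. *Aldh1l1* is itself a marker in the score, so its r is no independent result. With the score as a term the fold changes were 1.41 for *Fxyd1*, 1.01 for *Prodh* and 0.22 for *Prex2*. They were 0.55 for *Aldh1l1*, 0.76 for *Ntm* and 0.75 for *Ntsr2*. Among genes that the study itself names, *Pla2g5*, *Trpc6*, *Pdpn*, *Fbxo2* and *Scrg1* had fold changes of 3.10, 2.26, 2.20, 1.62 and 2.57 and r with the score of 0.81, 0.87, 0.86, 0.92 and 0.97. They were chosen by the study on these samples and are no independent evidence of a direction.

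Of the 118 higher genes that did not follow the score, 62 (52.5%) had their 2 highest Q175 values in replicates 3 and 4, against 5.32% of all genes. Markers of choroid plexus and ependyma, the secretory epithelium and lining of the ventricles, were high in the same libraries. The summed level of the 6 markers that were tested, of 10 listed, was 90.5, 3.93, 6.26, 14.4 and 42.8 CPM in WT and 1288, 1356, 5.77, 23.02 and 18.2 CPM in Q175. *Prlr*, the prolactin receptor, which is strong in that epithelium, was at 0.698, 0.200, 0.113, 1.22 and 0.958 CPM in WT and 14.7, 34.1, 0.235, 1.35 and 1.30 CPM in Q175. Only replicates 3 and 4 stood outside the WT range by more than a small margin, and without them the fold change was 0.58 instead of 3.99. *Igfbp2*, a binding protein of insulin-like growth factors, was at 0.752, 1.80, 0.677, 0.790 and 0.958 CPM in WT and 9.48, 10.6, 0.510, 3.54 and 1.83 CPM in Q175, and the homeobox gene *Msx1* at 0.591, 0.733, 0.395, 0.862 and 0.479 CPM in WT and 2.70, 7.24, 0.628, 1.99 and 1.09 CPM in Q175. Without these replicates the fold change of *Igfbp2* was 0.96. Several others rested on few reads. The proteoglycan *Ogn*, which lies inside *Cenpp*, had 0, 1, 0, 0 and 2 reads in WT and 4, 16, 8, 3 and 7 reads in Q175, the anion transporter *Slc26a7* had 0, 1, 0, 2 and 1 reads in WT and 5, 13, 5, 3 and 17 reads in Q175, and the lactate transporter *Slc16a8* had 1, 1, 0, 1 and 1 reads in WT and 8, 56, 2, 4 and 4 reads in Q175. Every Q175 library had a higher CPM of these genes than any WT library. Without replicates 3 and 4, a setting chosen after seeing the data, 31 of the 118 genes were higher at an unadjusted p under 0.05, and the median fold change of the 118 was 0.70. The 118 genes were chosen by that same p, so these sizes are a description only.

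Other higher genes outside the score had values above the WT range in further Q175 samples as well. *Nt5e*, encoding CD73, the ectoenzyme that makes extracellular adenosine, was at 2.42, 2.26, 2.60, 2.08 and 2.23 CPM in WT and 4.45, 5.75, 2.59, 3.47 and 4.04 CPM in Q175. Replicates 4 and 3 were again the highest, replicates 17 and 14 also lay above the WT range, and replicate 9 lay level with the highest WT sample (log2 fold change 0.80, SE 0.26, unadjusted p = 0.00989). Without replicates 3 and 4 the fold change of *Nt5e* was 0.54 and no longer under that level (unadjusted p = 0.0967 by edgeR). For the same allele in *Tyrobp*-null mice it was 0.66 (unadjusted p = 0.177 by edgeR). *Lgi4*, a secreted protein of glia that supports myelination, was at 11.8, 12.8, 6.04, 19.1 and 13.8 CPM in WT and 21.5, 26.8, 24.4, 30.9 and 16.4 CPM in Q175 (log2 fold change 0.92, SE 0.27, unadjusted p = 0.00488), with r = 0.06 to the score and only Q175 replicate 17 inside the WT range. *Lgi4* is the neighbour of *Fxyd1*, at chr7:31059342-31070935 and chr7:31051678-31057199 of GRCm38. *Lars2*, the mitochondrial leucyl-tRNA synthetase, was at 179, 207, 169.9, 116 and 92.8 CPM in WT and 1016, 135, 243, 467 and 370.0 CPM in Q175 (log2 fold change 1.54, SE 0.45, unadjusted p = 0.00422). Its highest value was that of Q175 replicate 3, Q175 replicate 4 lay within the WT range, and r with the score was -0.37. The matrix protein gene *Mgp* had 0, 4, 7, 1 and 3 reads in WT and 3, 25, 15, 26 and 24 reads in Q175.

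**Figure D5:**
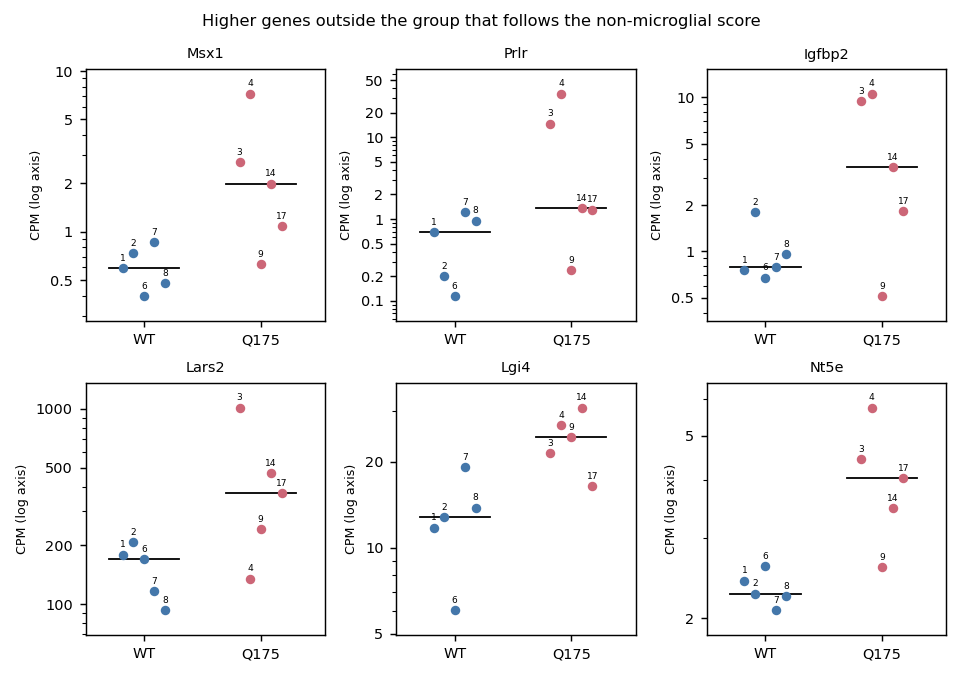
CPM on log axes of 6 higher genes with r under 0.5 to the non-microglial score, in 5 WT and 5 Q175 samples. Points are samples with their replicate number and lines are group medians. In the upper row Q175 replicates 3 and 4 are the 2 highest samples of each gene. In the lower row replicate 3 is highest for Lars2, 14 for Lgi4 and 4 for Nt5e, and for Lgi4 and Nt5e 4 Q175 samples lie above all WT samples.

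The lower genes were fewer and mostly changed by less. *Ccdc17*, a coiled-coil protein gene, was at 9.13, 8.66, 8.97, 9.34 and 7.66 CPM in WT and 5.98, 4.82, 7.34, 6.05 and 5.78 CPM in Q175. Every Q175 value lay below every WT value (log2 fold change -0.54, SE 0.18, unadjusted p = 0.0111), and the unadjusted p stayed under 0.05 in 10 of 10 fits that left out 1 sample. *Tnfrsf17*, encoding BCMA, a receptor of the TNF family best known from plasma cells, was at 13.97, 12.1, 17.6, 9.98 and 9.89 CPM in WT and 5.98, 7.89, 10.2, 6.69 and 7.78 CPM in Q175 (log2 fold change -0.72, SE 0.22, unadjusted p = 0.00662). Its overlap was between Q175 replicate 9 and WT replicates 7 and 8. *Nemp1*, a nuclear envelope protein gene, was at 18.6, 15.5, 17.7, 13.1 and 11.97 CPM in WT and 10.4, 10.7, 10.98, 8.88 and 12.002 CPM in Q175 (log2 fold change -0.54, SE 0.18, unadjusted p = 0.0108). *Fn1*, encoding fibronectin, was at 8.70, 15.1, 8.97, 19.7 and 22.1 CPM in WT and 4.96, 6.86, 6.71, 8.04 and 11.2 CPM in Q175 (log2 fold change -0.98, SE 0.30, unadjusted p = 0.00694), and its fold change was -1.49 with the score as a term, its r being 0.55. The predicted gene *Gm16385* had 8, 33, 12, 67 and 1 reads in WT and 0, 0, 2, 2 and 3 reads in Q175. Its highest values were those of WT replicates 7 and 2, and WT replicate 8 lay within the Q175 range. The unadjusted p of edgeR's test stayed under 0.05 in 10 of 10 fits that left out 1 sample. Without replicates 3 and 4 of Q175, 27 of the 128 lower genes that did not follow the score were lower at an unadjusted p under 0.05.

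The same *Htt* allele was compared without *Tyrobp*, in 5 Q175;*Tyrobp*-KO against 3 *Tyrobp*-KO samples, which share no sample with the 10 above. Of the 1000 genes higher in Q175, 379 (37.9%) had a fold change above 0 there, and of the 140 lower genes 71 (50.7%) had one below 0, where 49.3% of all genes were above 0. The difference of the Q175 effects, tested in 1 fit over all 4 groups, was at an unadjusted p under 0.05 for 1098 genes (6.01%), and edgeR called 0 at an FDR of 0.1 (smallest adjusted p = 0.715). That count was 280 with sex and 396 with the score as a term, and without 1 library it was 540 (*Tyrobp*-KO replicate 20), 566 (Q175 replicate 14), 708 (Q175;*Tyrobp*-KO replicate 11) or 1864 (Q175 replicate 9). The genes named next were chosen for a low p in Q175 against WT, which is 1 side of this difference and can enlarge it, so the p-values of their differences are a description only. The median of the 12 mitochondrial messenger RNAs was 1.73 with *Tyrobp* and -0.77 without it, and that of the transfer and ribosomal RNAs 1.94 and -0.96. For *mt-Nd2* the fold changes were 2.36 and -0.76 (unadjusted p of the difference = 0.00953). For *Mt2* they were 2.05 and -1.10 (unadjusted p = 0.00698), and for *Fabp5* 0.77 and -0.86 (unadjusted p = 0.0077). *Lars2* had 1.54 and -0.39 (unadjusted p = 0.00407), *Lgi4* 0.92 and -0.05 (unadjusted p = 0.0208), and *Pms2* -0.39 and 0.20 (unadjusted p = 0.013). Among the innate genes *Tlr2* had -0.46 and -0.20 (unadjusted p = 0.272), and *Btg1* -0.35 and -0.40. For *Nt5e* the fold changes of 0.80 and 0.66 had an unadjusted p of the difference of 0.848, which does not show that they were equal.

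Because sex and genotype overlapped, the values were also given with sex as a term. The mitochondrial messenger RNAs then held 2 higher genes of 12. In edgeR's test the fold changes were 1.43 (unadjusted p = 0.0425) for *Mt2*, 1.88 (unadjusted p = 0.0311) for *mt-Nd2*, 0.72 (unadjusted p = 0.0636) for *Tgfb3*, 0.59 (unadjusted p = 0.138) for *Nt5e*, -0.56 (unadjusted p = 0.0692) for *Tlr2* and -0.47 (unadjusted p = 0.0618) for *Ccdc17*. Of these only *Mt2* and *mt-Nd2* stayed under 0.05. *Cd33* moved from -0.48 to -0.26 and *Prlr* from 3.99 to 1.44. Each of these estimates rests on 1 WT female and 1 Q175 male, so the separation of sex from genotype is weak.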

How the data were processed

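RNA sequencing was carried out by the authors on CD11b-bound striatal microglia with SMART-Seq reagents for low input, ribosomal RNA depletion and non-directional libraries. Reads were aligned with STAR and counted with featureCounts. The deposited values are raw counts per gene, made by the authors without normalization. The methods give GRCm38, while the submitters' processing notes list a human build. All 55536 identifiers matched GENCODE M21 for GRCm38, from which symbols and positions were taken. A further 2 columns of the table match no labelled sample and stayed unused. The labels give 2 striata per sample and the methods 1, and the p-values measure the spread between these samples. No sample was a copy of another.

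Counts were scaled by TMM and tested with edgeR 4.0.16 in R 4.3.3 (quasi-likelihood test, Benjamini-Hochberg FDR of 0.1) on the 10 samples, without covariates, for genes reaching 1 CPM in 1 or more samples. CPM are counts scaled to the TMM-adjusted library total, and log2 CPM used a prior count of 2. Precision is limited by totals of 11260410 to 24011729 counts, of which *Gm26917* and *Gm42418* took 12.5% to 29.5%, and by 5 samples per group. The non-microglial score is the mean of the scaled astrocyte, neuronal and oligodendrocyte marker levels over the 18 samples. A list is described by its members at an unadjusted p under 0.05, its members whose groups do not overlap and its median. The gene lists, the named genes and the samples compared were chosen with earlier results of these data known. Named genes were list members under that p or heading a list, the genes with the smallest p in each direction, overall and with r under 0.5 to the score, and genes the study's text names. The script was tested on simulated counts. Alternatives were DESeq2 1.42.0, other scalings and filters, 1 fit over all 4 groups, sex or the score as a term, leaving out each sample and, added after seeing the data, leaving out Q175 replicates 3 and 4.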

Additional observations from a re-analysis of the deposited data

Results flagged for a closer look

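In sets of 5 samples, a value was marked when its gap to the nearest other sample was large against the range of the group. This held for 11 of 324 sets of a gene or list in a group, where chance marks about 1 in 20. Among lists, on the scale of mean log2 CPM, the phagocytic receptors were at 6.16 in Q175 replicate 4, below a group median of 6.49, and TGF-beta signalling genes at 5.52 in the same sample, below 5.97. The mitochondrial transfer and ribosomal RNAs were at 5.04 in Q175 replicate 14, above 2.47, and the medium spiny neuron markers at 3.04 in Q175 replicate 17, below 4.85. Among genes, on the log2 CPM scale, *Prex2* was at 7.69 in Q175 replicate 14 against 6.05, *Neu4* at 2.38 and *Ogn* at 0.68 in Q175 replicate 4 against 1.95 and -1.25, and *Ptgs2* at -3.11 in Q175 replicate 3 against -0.87. In WT replicate 6 *Aldh1l1* was at 2.78 against 3.69, *Spp1* at 4.11 against 5.97 and *Slc16a8* at -3.11 against -2.56.

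In 9 of 44 lists the 4 Q175 females lay on 1 side of the WT female and the Q175 male on the other side of the 4 WT males. The difference between the sexes was not tested, and each side rests on a single sample. The Q175 minus WT differences in mean log2 CPM were 0.40 in females and -0.10 in males for cholesterol biosynthesis, 0.34 and -0.31 for iron and heme, 0.78 and -0.21 for glutathione and antioxidant genes, and 0.45 and -0.28 for the tricarboxylic acid cycle. They were 0.88 and -0.64 for the nuclear respiratory chain, 0.37 and -0.39 for the mitochondrial ribosome, 0.31 and -0.52 for the proteasome, 0.26 and -0.20 for heat shock chaperones, and -0.16 and 0.10 for histone deacetylase and bromodomain genes.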

How the results depend on the processing

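DESeq2 called 234 genes in Q175 against WT where edgeR called 0, 674 in Q175;*Tyrobp*-KO against *Tyrobp*-KO and 2 for the difference of the Q175 effects. Genes higher at an unadjusted p under 0.05 numbered 268 with the non-microglial score and 208 with sex as a term, and 617 to 1125 when 1 sample was left out, the lowest without Q175 replicate 14. Lower genes numbered 446 in the fit over 4 groups, 303 by DESeq2, 466 without a filter, 38 with sex as a term, 93 without Q175 replicates 3 and 4, and 73 to 379 with 1 sample left out. The difference of the Q175 effects was under that p for 396 genes with the score and 280 with sex as a term, and 540 to 1864 with 1 sample left out, the lowest without *Tyrobp*-KO replicate 20 and the highest without Q175 replicate 9. Every fit of edgeR that left out 1 of the 10 samples called 0 genes. With the score as a term 605 of the 1000 higher and 134 of the 140 lower genes kept their sign. Of the 66 named genes under that p 15 changed sign: *Adora1* to -0.39, *Cbx6* to -0.22, *Cox6a1* to -0.88, *Cox8a* to -0.92, *Fabp5* to -0.50, *Hmgcs1* to -0.43, *Itgb8* to -0.56, *Mt1* to -0.72, *Mt2* to -0.17, *Mt3* to -0.018, *mt-Co1* to -0.97, *mt-Nd1* to -0.72, *mt-Nd2* to -0.39, *mt-Nd4* to -0.68 and *mt-Nd6* to -0.55. The cause was not tested. The score, sex and genotype run together over the 10 samples, so the terms cannot be told apart from genotype with confidence. No paired analysis was possible because the groups share no replicate number. Genes near 1 CPM rest on few reads, and a difference there may be missed at this depth.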
